A study of Mus musculus with 2 samples.

Results

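Genes that move or degrade monoamines were followed in the mouse adrenal gland, 7 of 55536 annotated genes. They were chosen by name: the vesicular monoamine transporter genes Slc18a1 and Slc18a2, the plasma membrane carrier genes Slc6a2, Slc22a3 and Slc29a4, and the monoamine oxidase genes Maoa and Maob. All 7 symbols matched a gene of the annotation. Total RNA came from adrenal glands of adult male mice 8 to 10 months old, bred from 5xFAD and CAST. The name 5xFAD stands for mice whose transgenes lead to amyloid deposits in the brain, and CAST for an inbred strain derived from wild mice. The labels name neither the promoter that drives the transgenes nor the transgene status of each animal. There was 1 group of 2 libraries, labelled biological replicates 1 and 2, with separate biosamples but the same donor entry. The spread between them may therefore not be a spread between animals. With no second group, nothing was tested between groups. The libraries held 29204618 (replicate 1) and 26322446 (replicate 2) counts of annotated genes.

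Monoamines include noradrenaline, adrenaline, dopamine, serotonin and histamine. In the adrenal medulla, chromaffin cells make catecholamines and load them into granules through vesicular transporters, which exchange protons for amines. Carriers of the plasma membrane return released amines to the cytosol. There the monoamine oxidases, flavin enzymes of the mitochondrial outer membrane, turn them into aldehydes, which aldehyde dehydrogenases and reductases then convert further.

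The label of the tissue was checked against markers. All 8 chromaffin markers and all 6 cortex markers were detected, meaning at least 1 TPM (a level divided by transcript length and scaled to a fixed total) in both libraries. Chga, a granule protein gene, was at 807 and 916 TPM in replicates 1 and 2, and Star, which brings cholesterol into mitochondria, at 5583 and 5825 TPM. In a whole gland, fewer cells of a type and less RNA per cell cannot be told apart. White adipocyte markers were also present, 6 of 6 detected, and summed to 701 TPM in replicate 1 and 419 TPM in replicate 2. No defining marker of chromaffin cells, cortex or white adipocytes was at 0.

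The monoamine oxidase genes lie side by side, and their likeness bears on whether their reads can be told apart. Maoa lies on chrX:16619698-16687818 of mm10 on the plus strand, and Maob on chrX:16709282-16817366 on the minus strand. Their ends face each other with 21463 bases between them, and each main transcript has 15 exons. Their coding parts were identical at 1103 of 1548 aligned bases, or 71.3%. The longest stretch shared by the main transcripts, Maoa-201 and Maob-201, was 35 bases and lay in exon 12 of both, at chrX:16682201-16682235 (plus) and chrX:16716449-16716483 (minus). The stretch is given here with 33 bases on either side, all coding. Capitals mark the 15 bases that differ. The window also holds the codon of the cysteine to which the flavin is bound (the tgc in gggggctgctac), codon 406 of 526 in Maoa and codon 397 of 520 in Maob.
Maoa-201: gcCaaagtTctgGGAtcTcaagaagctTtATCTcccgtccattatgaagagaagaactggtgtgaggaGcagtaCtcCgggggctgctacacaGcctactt
Maob-201: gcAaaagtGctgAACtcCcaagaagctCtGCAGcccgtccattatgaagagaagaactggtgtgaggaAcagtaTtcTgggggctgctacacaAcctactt

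On the sense strand, no 100-base window of Maob-201 occurred in another gene of the annotation, and 6 of its 2382 windows of 30 bases occurred in Maoa. Of the 4068 windows of 100 bases in Maoa-201, 15 occurred in another gene, Gm26691, and the main transcripts of the 5 transporter genes had none that did. At 30 bases on the same strand, 292 of 4138 windows of Maoa-201 occurred in 210 other genes, and 84 of 6158 windows of Slc6a2-201 in 636. Slc18a1-201 had 4 such windows, and Slc18a2-201, Slc22a3-201 and Slc29a4-201 had none. On the antisense strand, 2 windows of 100 bases of Slc18a2-201 occurred in Gm29261. The vesicular pair was 68.5% identical in aligned coding bases, with a longest shared stretch of 15 bases. Slc22a3 and Slc29a4 shared at most 11 bases in a row. The deposited posterior SD of the gene count, the quantifier's own measure of reads it could have placed elsewhere, was 0 reads for all 7 genes in both libraries.

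The remaining genes lie apart from one another or on other chromosomes. In mm10, Slc18a1 is at chr8:69037711-69089235 (minus strand, 17 exons in its main transcript) and Slc6a2 at chr8:92960079-93001667 (plus, 14 exons). Slc18a2 is at chr19:59260896-59296012 (plus, 16 exons). Slc22a3 is at chr17:12418960-12507704 (minus, 11 exons) and Slc29a4 at chr5:142692512-142722490 (plus, 11 exons). The start of Slc18a1 overlaps that of Atp6v1b2, on the opposite strand, by 590 bases. Atp6v1b2 encodes a subunit of the proton pump that drives vesicular loading, and held 3899 and 3686 counts. Slc18a1 also spans the antisense gene Gm15716, listed at 0 counts in both gene tables but at 2.07 and 0.536 TPM by the second quantifier, a further set of deposited values made from the reads without the alignments. Slc18a2 overlaps Gm29261 (3 and 1 counts), and Slc22a3 overlaps Plg (1 and 3 counts). The library kit keeps strand. Whether the counting used it is not given in the sources used here, so reads in these overlaps are uncertain.

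Of the 7 genes 6 were detected, all but Slc22a3. Detection held for 56.2% of protein-coding genes and 25.5% of all annotated genes. Levels ran from Maoa at 31.03 ± 0.636 TPM down to Slc22a3 at 0.945 ± 0.304 TPM (mean ± SD, n = 2, here and below). The order was Maoa, Slc18a1, Slc29a4, Slc18a2, Maob, Slc6a2 and Slc22a3 in both libraries. Each gene's 2 values lay clear of those of the next gene, except for Slc18a1 and Slc29a4, whose values overlapped. Among the detected protein-coding genes, 80.4% lay below Maoa, 39.6% below Slc18a2 and 23.7% below Slc6a2.

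**Figure D1:**
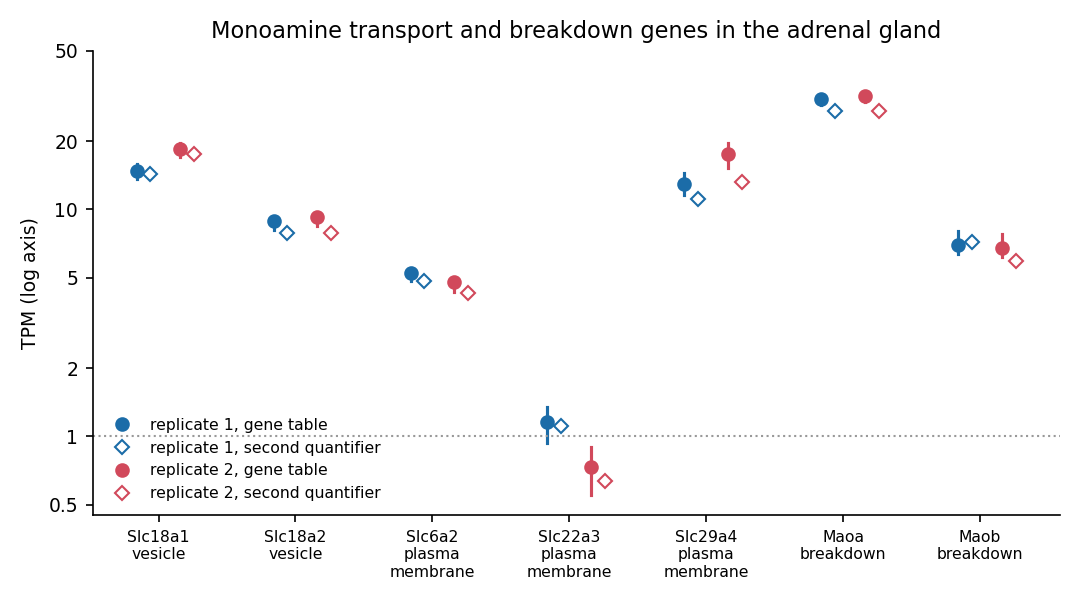
TPM on a log axis of each of the 7 genes in replicates 1 (blue) and 2 (red). Filled points are the gene tables with the deposited TPM interval as a bar, open diamonds are the second quantifier, and the dotted line is the detection limit of 1 TPM. Maoa is highest, at 30.6 and 31.5 TPM, and Slc22a3 straddles the line at 1.16 and 0.73 TPM.

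Both vesicular transporter genes were expressed, and Slc18a1 was the higher. Slc18a1 encodes VMAT1, the form typical of endocrine cells, and was at 14.78 TPM (1128 counts) in replicate 1 and 18.45 TPM (1238 counts) in replicate 2. Slc18a2 encodes VMAT2, the form typical of monoamine neurons and also made by chromaffin cells, and was at 8.85 TPM (951 counts) and 9.29 TPM (887 counts). The lower Slc18a1 value lay above the higher Slc18a2 value. Their TPM ratio was 1.67 in replicate 1 and 1.99 in replicate 2, or 1.83 ± 0.223. Without division by length the ratio was 1.29. The main transcripts have 3115 bases (Slc18a1-201) and 3785 bases (Slc18a2-201), and the TPM of a gene also weighs in the lengths of its other transcripts.

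Both were below most genes of catecholamine synthesis in the fixed list. Th, the rate-limiting tyrosine hydroxylase, was at 210 and 216 TPM, which is 12.9 ± 1.75 times the level of Slc18a1. The ratio of their counts was 8.46 ± 1.05. Dbh, the granule enzyme that makes noradrenaline, was at 174 and 198 TPM. Ddc, the decarboxylase of both catecholamine and serotonin synthesis, was at 35.87 and 38.59 TPM. Gch1, which makes the cofactor of tyrosine hydroxylase, was closest to Slc18a1, at 17.57 and 21.26 TPM. The ratio of Slc18a1 to Dbh was 0.0850 and 0.0930, or 0.0890 ± 0.00564.

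Of the 3 plasma membrane carrier genes chosen, Slc29a4 was the highest and Slc22a3 the lowest. Slc29a4 encodes PMAT, a low-affinity, high-capacity carrier of monoamines, and was at 12.89 TPM (931 counts) and 17.59 TPM (1016 counts). Slc6a2 encodes the sodium-driven noradrenaline transporter, the target of several antidepressants, and was at 5.27 TPM (903 counts) and 4.78 TPM (741 counts). Slc29a4 lay above Slc6a2 in both libraries, with a TPM ratio of 3.06 ± 0.873. The ratio of their counts was 1.20 ± 0.240. Slc6a2-201 has 6187 bases, Slc29a4-201 has 2789, and Slc29a4 has a further transcript of 406 bases.

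Slc22a3 encodes the organic cation transporter OCT3, which takes up amines in non-neuronal cells. It was at 1.16 TPM (113 counts) and 0.73 TPM (64 counts), above the detection limit in replicate 1 only. The ratio of Slc29a4 to Slc22a3 was 11.1 in replicate 1 and 24.1 in replicate 2, so its size is loosely fixed while its direction was the same. The summed TPM of the 2 vesicular genes was 1.22 and 1.20 times that of the 3 plasma membrane genes, or 1.21 ± 0.0157. The plasma membrane carrier gene Slc6a4 (14.04 and 19.25 TPM) was not among the 3, so the ratio holds for the chosen genes only. For Slc29a4 and Slc22a3, low-affinity carriers at opposite ends of the chosen 3, the bases before the annotated transcript start are shown. They come from RefSeq's table for GRCm38.p6, the assembly also called mm10. The windows are chr5:142701851-142702100 (plus) for Slc29a4 and chr17:12507705-12507954 (minus) for Slc22a3. Capitals mark the letters GGGCGG (the GC box) on either strand, and TGACGTCA (the cAMP response element), a palindrome, was searched as well.
Slc29a4: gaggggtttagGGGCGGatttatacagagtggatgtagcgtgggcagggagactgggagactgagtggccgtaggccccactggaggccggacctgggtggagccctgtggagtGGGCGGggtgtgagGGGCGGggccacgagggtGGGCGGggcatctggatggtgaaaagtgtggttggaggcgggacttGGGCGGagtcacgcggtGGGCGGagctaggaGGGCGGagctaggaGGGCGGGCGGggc
Slc22a3: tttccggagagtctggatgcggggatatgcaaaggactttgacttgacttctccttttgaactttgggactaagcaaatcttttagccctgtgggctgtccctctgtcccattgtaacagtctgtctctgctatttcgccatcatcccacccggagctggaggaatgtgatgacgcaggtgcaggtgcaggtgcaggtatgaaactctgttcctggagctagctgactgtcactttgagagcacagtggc

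Slc29a4 held 9 GC boxes, of which the last 2 overlap each other, and Slc22a3 held neither motif. Over windows of 300 bases, from 250 before to 50 after the start, 35.7% of 32851 promoters held a GC box, and 0.125% held at least 9. The share of G and C was 70% for Slc29a4 and 52% for Slc22a3, beside a median of 52.7% over all these promoters. Maoa and Slc18a2, the other members in the table, held 2 GC boxes each. Slc18a2 also held TGACGTCA, 22 to 15 bases before its start in GENCODE M21. RefSeq places the start 18 bases further upstream, within the motif. TGACGTCA was held by 1.79% of promoters. These matches describe the letters in the windows, not binding.

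Maoa was the highest of the 7 genes and Maob was well below it. Maoa encodes the oxidase that prefers serotonin and noradrenaline, and was at 30.58 TPM (3562 counts) and 31.48 TPM (3275 counts). Maob encodes the form that prefers phenylethylamine, and was at 6.96 TPM (443 counts) and 6.75 TPM (385 counts). The groups of values did not overlap. The TPM ratio of Maoa to Maob was 4.39 and 4.66, or 4.53 ± 0.191, and the count ratio was 8.27 ± 0.329. Maoa-201 has 4167 bases and Maob-201 has 2411.

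Several enzymes that act on the aldehydes made by the oxidases were at higher levels than Maoa. Aldh2, the mitochondrial aldehyde dehydrogenase, was at 286 and 316 TPM, or 9.70 ± 0.487 times Maoa. Aldh1a1, a cytosolic form, was at 403 and 331 TPM, or 11.8 ± 1.89 times Maoa. On counts, not divided by length, these ratios were 3.30 ± 0.202 for Aldh2 and 5.68 ± 0.901 for Aldh1a1. The aldehyde reductase genes Akr1a1, Akr1b3 and Akr7a5 had means of 277, 104 and 22.0 TPM. Aldh9a1, Aldh3a2 and Aldh1b1 were at 25.5, 19.5 and 14.3 TPM on average, and the phenol sulfotransferase gene Sult1a1 at 13.3 TPM. Aoc3, a copper amine oxidase of the cell surface, was at 14.68 and 9.47 TPM. Rnls (renalase) was below the limit, at 0.85 and 0.83 TPM, so 10 of these 11 genes were detected.

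Among 6 other carriers of amines or related cations, only Slc6a4 and Slc18b1 were detected. Slc6a4, the serotonin transporter gene, was at 14.04 TPM (890 counts) and 19.25 TPM (1051 counts). In TPM it lay above Slc6a2 in both libraries, with a ratio of 2.66 and 4.03. The ratio of their counts was 0.986 in replicate 1 and 1.42 in replicate 2. Of 8 genes of amine synthesis 5 were detected, and the tryptophan hydroxylase genes, which start serotonin synthesis, were not: Tph1 had 1 count in each library, and Tph2 had 18 and 4 counts. Slc6a4 is also known from mast cells and platelets, whose part in its level was not tested. None of 9 mast cell markers was detected, and they summed to 4.22 and 3.82 TPM. The highest of these were Hdc, at 1.48 and 0.96 TPM (57 and 42 counts), and Cpa3, at 1.11 and 0.87 TPM (38 and 30 counts). Both were thus above the limit in replicate 1 only. The lowest, Fcer1a and Ms4a2, had 1 count in replicate 1 and were at 0 in replicate 2. Of 5 platelet and megakaryocyte markers 2 were detected, Pf4 and Itga2b, and the 5 summed to 6.52 and 5.15 TPM, with Gp9 at 0 in replicate 2 and Gp1bb at 0 in replicate 1.

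Slc18b1, a vesicular polyamine transporter gene, was at 14.29 and 11.05 TPM. Slc6a3, the dopamine transporter gene, had 1 count in each library. Slc22a2, an organic cation transporter gene related to Slc22a3, had 0 and 3 counts. Slc18a3, the vesicular acetylcholine transporter gene, had 0 and 2 counts, and Slc47a1 was at 0.19 and 0.28 TPM.

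**Figure D2:**
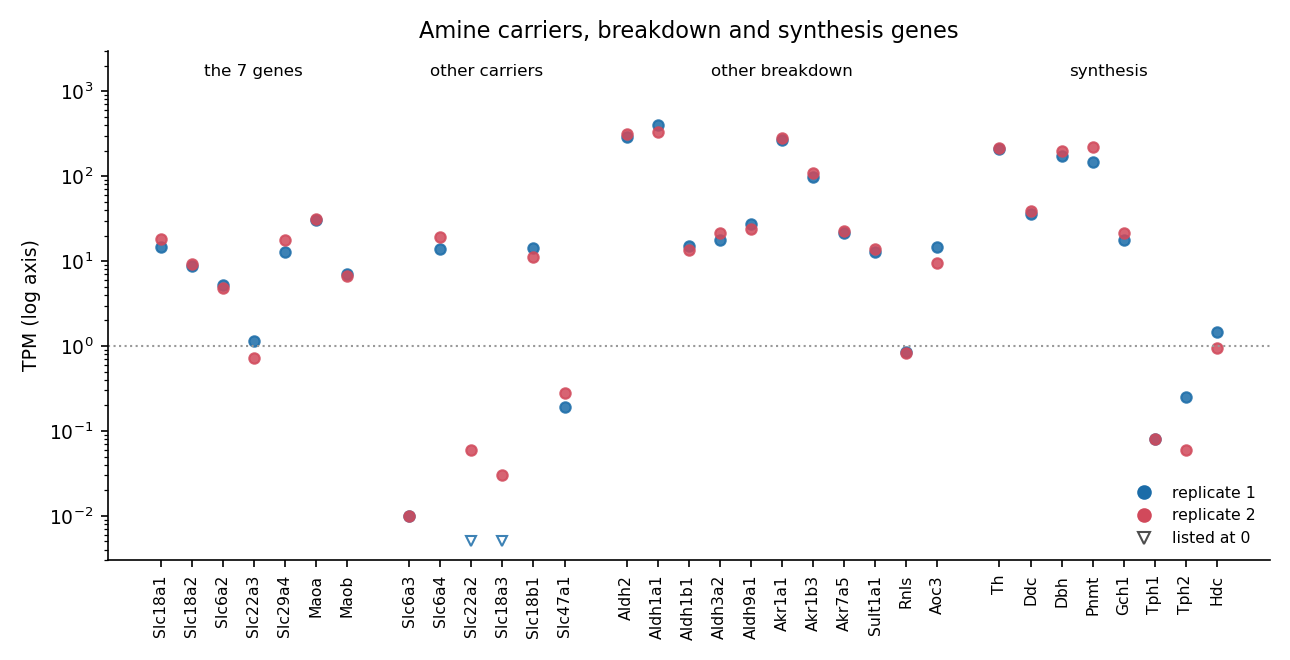
TPM on a log axis of the 7 genes, 6 other carriers, 11 other breakdown genes and 8 synthesis genes in replicates 1 (blue) and 2 (red). Open triangles mark values listed at 0 and the dotted line is 1 TPM. Slc6a4 and Slc18b1 are the only other carriers above the line, and Aldh2, Aldh1a1 and Akr1a1 stand above the monoamine oxidases.

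Transcripts of the 7 genes were then compared across libraries and quantifiers. The annotation holds 18 of them, of which 12 reached 10% of their gene's TPM in some library by some quantifier. Maoa-201 is the only annotated transcript of its gene, so its share of 100% is fixed in advance. Slc22a3-201 held 100% of its gene's TPM throughout, with Slc22a3-202 at 0. Slc18a1-201, the full coding form, held 75.8% and 75.0%, and the retained-intron transcript Slc18a1-202 held 16.9% and 19.6%. Slc18a2-201 held 89.0% and 92.0%, and the rest went to the retained-intron form Slc18a2-202. For Slc22a3, Slc18a1 and Slc18a2 the libraries differed by 3 percentage points or less.

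The noradrenaline transporter gene differed most. Slc6a2-202 held 59.4% of the gene's TPM in replicate 1 and 12.6% in replicate 2, and by the second quantifier 51.0% and 23.8%. Slc6a2-201 held the remainder. The transcripts share 5904 bases and the whole coding part of 1851 bases. They differ at the 5′ end, where their starts lie 854 bases apart, with 283 bases that belong to Slc6a2-201 alone and 103 to Slc6a2-202 alone. The posterior SD of either transcript's count was 131 reads in replicate 1 and 105 reads in replicate 2, against a gene total of 903 and 741 reads. The split is thus weakly fixed, while the gene's total had a posterior SD of 0.

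Slc29a4-202, a transcript of 406 bases that starts 9589 bases upstream of Slc29a4-201, held 6.98% and 18.1%, from 7.93 and 24.93 estimated counts. By the second quantifier it held 2.51% and 4.47%. Because it is short, few reads make a large share of TPM. Maob-201 held 92.3% and 95.3%, but 70.1% and 79.6% by the second quantifier, which gave 20.95% and 13.2% to Maob-203, a transcript annotated for nonsense-mediated decay.

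**Figure D3:**
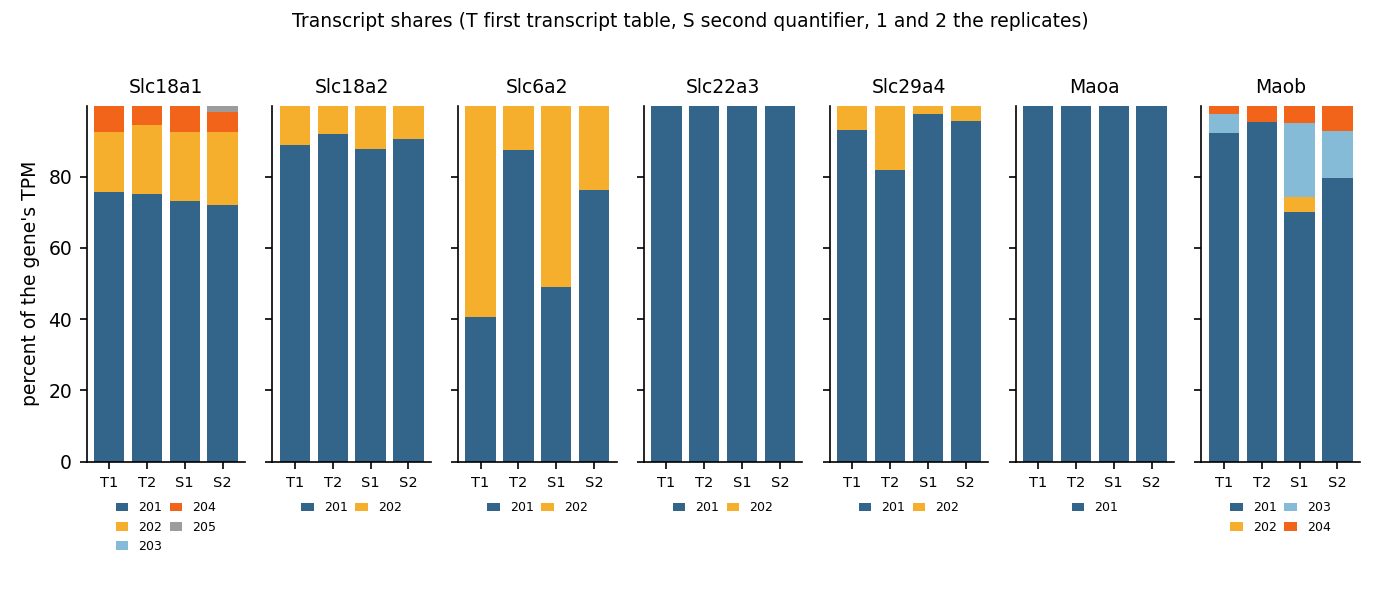
Share of each gene's TPM (percent) held by each of its transcripts, as stacked bars. T1 and T2 are replicates 1 and 2 in the first transcript table, S1 and S2 in the second quantifier. Slc6a2 differs most between the libraries, with Slc6a2-202 at 59.4% in T1 and 12.6% in T2, and Maob-201 is lower in S1 and S2 than in T1 and T2.

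The libraries were next compared gene by gene, as the log2 ratio of scaled counts, replicate 2 over replicate 1, with an SE that covers counting error only. Of the 7 genes 4 had a ratio above 0 and 3 below, with a median of 0.02 beside -0.01 over all 16383 genes that averaged 20 counts or more. One gene, Slc22a3, was at least 1.5-fold apart, as were 6.71% of all genes, while 4.03% were at least 1.5-fold lower in replicate 2. It was lower in replicate 2 by 0.67 on the log2 scale (a log2 ratio of -0.67, SE 0.22), from 113 and 64 counts.

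The oxidases and Slc18a2 differed little, with log2 ratios of 0.02 (SE 0.03) for Maoa, -0.06 (SE 0.10) for Maob and 0.04 (SE 0.07) for Slc18a2. With totals of the spike-ins as scale, all ratios shifted by -0.10, and those of Maoa and Slc18a2 became -0.08 and -0.06. Slc6a2 was at -0.14 (SE 0.07). Slc18a1 was at 0.28 (SE 0.06) and Slc29a4 at 0.27 (SE 0.07), both above 0 under all 7 settings tried. The TPM ratio of Slc29a4, with 0.1 TPM added, was larger at 0.45, and this gene is the one whose short transcript differed in share.

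The deposited TPM intervals gave another view, chosen after the data were seen. Of the 6 genes with a mean of at least 1 TPM, those of 2 did not overlap between the libraries, against 10.1% of all such genes. Both were higher in replicate 2, where the share of all such genes was 5.26%. The Slc18a1 interval was 13.7 to 15.9 TPM in replicate 1 and 17.0 to 19.7 TPM in replicate 2. The Slc29a4 interval was 11.5 to 14.5 TPM and 15.2 to 19.5 TPM. The short transcript Slc29a4-202 held 0.9 and 3.18 TPM of this gene, from 7.93 and 24.93 estimated counts. By the second quantifier the gene was at 11.1 and 13.2 TPM. The intervals of Slc22a3, below that limit, were 0.938 to 1.35 TPM and 0.550 to 0.900 TPM, also apart.

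**Figure D4:**
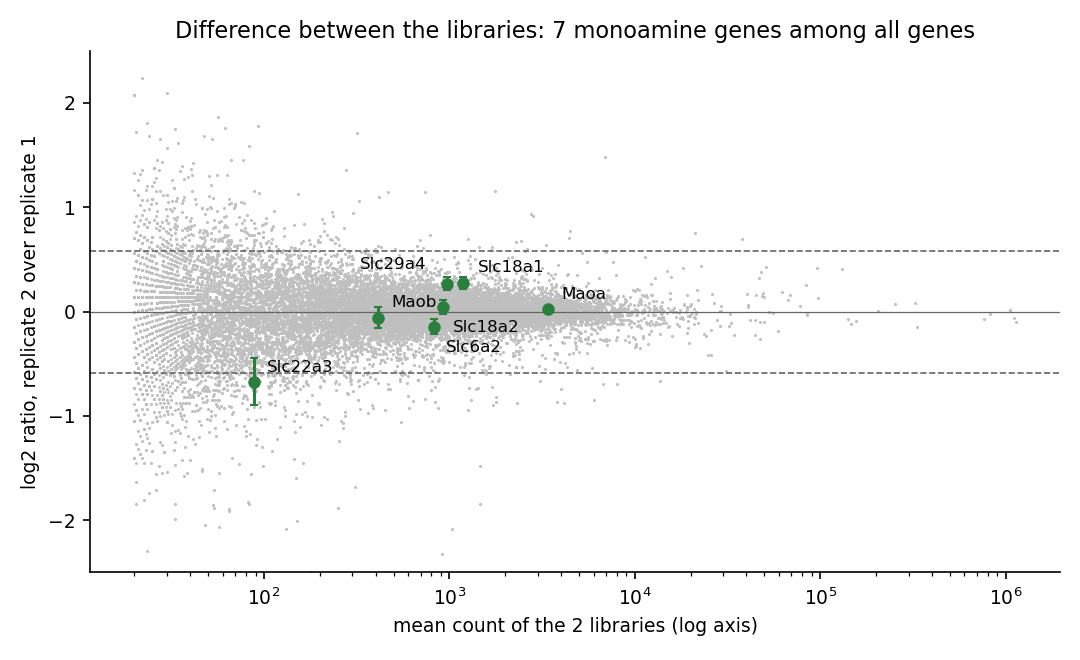
Log2 ratio of replicate 2 over replicate 1 against the mean count of the libraries (log axis), for all 16383 genes (grey) and the 7 genes (green, bars are the counting SE). Dashed lines mark 1.5-fold, and genes beyond the plotted range of the y axis are not drawn. Slc22a3 lies below the lower line at -0.67, and the other 6 lie between the lines.

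Markers of other cells moved between the libraries as well. All 8 chromaffin markers had a ratio above 0, with a median of 0.17, and summed to 2403 and 2775 TPM. The 4 neuron markers with enough counts had a median of 0.25, and all 5 summed to 37.5 and 43.95 TPM. The cortex list had a median of 0.07, with 4 markers above 0 and 2 below. Of the 7 genes, Slc18a1, Slc29a4, Slc18a2 (0.04, SE 0.07) and Maoa (0.02, SE 0.03) were above 0, and the other 3 were below. Slc18a2 and Maoa were within their SE of 0. With totals of the spike-ins as scale, the ratios of the markers shift by -0.10 as well, and Slc18a2 (-0.06) and Maoa (-0.08) fall below 0. All 6 white adipocyte markers had a ratio below 0, with a median of -0.86, and 5 were at least 1.5-fold lower. Macrophage markers, 5 of 5 detected, had a median of -0.53, with 1 above 0 and 4 below. They summed to 214 and 139 TPM, of which Lyz2 held 146 and 81.4 TPM. Smooth muscle markers, 4 of 4 detected, had a median of -0.27, with 1 above 0 and 3 below, and summed to 51.9 and 38.4 TPM. Medians were also below 0 for brown adipocyte (-0.65), mast cell (-0.20), fibroblast and capsule (-0.12) and endothelial (-0.05) markers. In each of these lists markers went both ways. Those above and below 0 numbered 1 and 2 for brown adipocyte, and 2 and 3 for fibroblast and capsule. They numbered 1 and 4 for endothelial, and 1 and 2 for mast cell, where 3 of 9 markers had enough counts. Slc22a3, Slc6a2 and Maob (-0.06, SE 0.10) were below 0 too, as was Aoc3 with a log2 ratio of -0.74 (SE 0.06). No marker of the chromaffin, neuron, white adipocyte, macrophage and smooth muscle lists was at 0, and the part of these cells in the ratios of the transport genes was not tested.

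**Figure D5:**
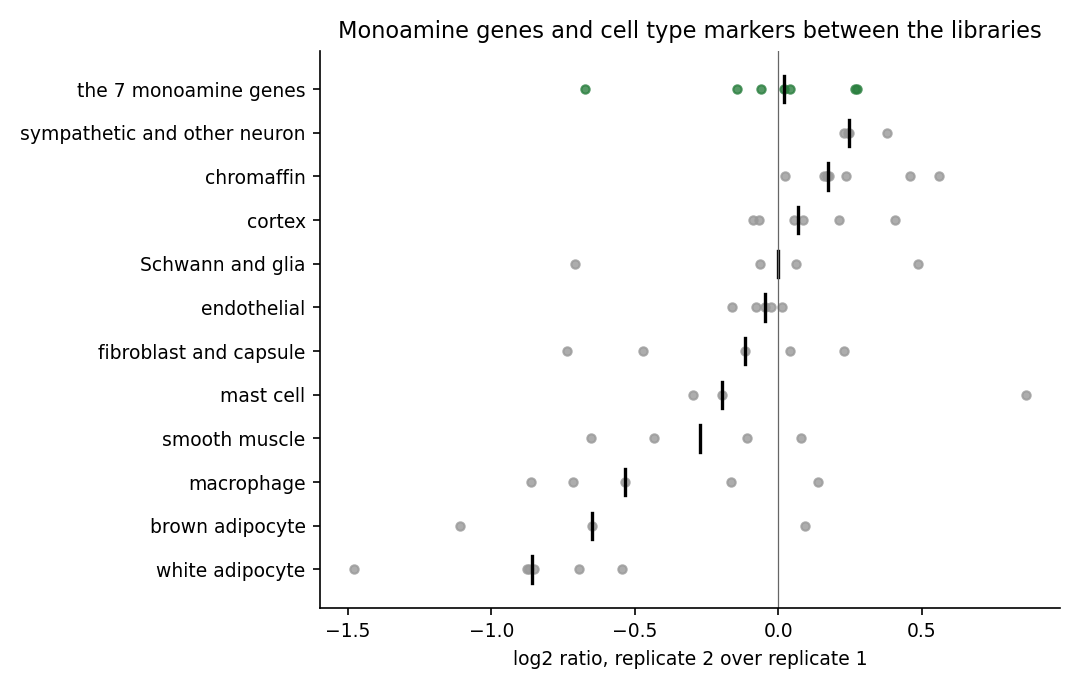
Log2 ratio of replicate 2 over replicate 1 for the 7 genes (green) and for markers of 11 cell types (grey), for genes averaging 20 counts or more and lists with at least 3 such genes. Black bars are medians. The 7 genes have a median of 0.02, white adipocyte markers lie lowest at -0.86, and chromaffin and neuron markers lie above 0.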

How the data were processed

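Per the labels, 300 ng of adrenal gland RNA was depleted of ribosomal RNA, given ERCC spike-ins and sequenced as strand-specific libraries. Per the library notes, the authors made the deposited expected counts, TPM, TPM interval bounds (a signal in TPM units whose level is not stated) and posterior SD of counts from alignments to the mm10 transcriptome (GENCODE M21). Per the file headers, the deposited first transcript tables hold the same values and the percent of a gene's TPM that each transcript takes. The deposited second transcript tables (the second quantifier) give estimated counts and TPM made from the reads without alignments. The names of aligner and quantifiers were not found in these sources. The authors scaled TPM to the sum of all 81881 rows, of which protein-coding genes outside the mitochondrial genome hold 33.3% and 33.7%. CAST reads were counted against mm10, and the effect of this was not analysed here.

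Expected counts were rounded. Spike-ins (0.468% and 0.504% of counts) and 26248 rows with numeric identifiers (1.5e-05% and 2.1e-05%) stayed out of library sizes. Log2 ratios used TMM factors (0.997 and 1.003) from edgeR 4.0.16 in R 4.3.3 and a prior count of 0.5. Size factors came from DESeq2 1.42.0, and other steps used Python 3.11.15, numpy 2.4.6, pandas 2.3.3, scipy 1.17.1 and matplotlib 3.10.9. The ratio script was tested on simulated data. Sequences and exons came from mm10 with its annotation, and promoters from RefSeq's table for GRCm38.p6, which held 4 of the 7 genes.

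The genes named are the 7 members, their transcripts at 10% or more, 2 fixed lists of carriers and breakdown genes (some genes of which are not reported here), synthesis genes that a ratio uses, and the highest markers; Ddc, Gch1, Tph1, Tph2 and single markers listed at or near 0 were named after their values were seen. Members and lists were chosen with earlier results of these data known. Alternatives were other scalings, count, fold and TPM limits, prior counts, the second quantifier and leaving out each library. With 1 library a side no p-value was computed, and reads are not independent molecules, so SEs cover counting error only.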

Additional observations from a re-analysis of the deposited data

How the results depend on the processing

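The order Maoa, Slc18a1, Slc29a4, Slc18a2, Maob, Slc6a2, Slc22a3 also held in the second quantifier. It did not hold on counts, where Slc6a2 (903 and 741) lay above Maob (443 and 385) in both libraries. In replicate 1, Slc18a2 (951 counts) also lay above Slc29a4 (931 counts). The median level of the 7 genes was 9.07 TPM, but 7.88 TPM by the second quantifier and 27.1 TPM when TPM was rescaled over protein-coding genes, and 8.85 to 9.29 TPM in single libraries. The Slc18a1 to Slc18a2 ratio was 1.29 on counts. The Maoa to Maob ratio was 4.19 by the second quantifier and 8.27 on counts. The ratio of the 2 vesicular to the 3 chosen plasma membrane genes, without Slc6a4, was 1.35 by the second quantifier and 1.12 on counts. Counts are not divided by length. The Slc29a4 to Slc22a3 ratio ran from 11.1 to 24.1 and the share of Slc6a2-202 from 12.6% to 59.4% between single libraries. One gene was past 1.5-fold, 0 past 2-fold, and 3 had deposited intervals that did not overlap, or 2 of the 6 with a mean of at least 1 TPM, beside 10.1% of all such genes. Under other scalings and count limits that number stayed at 1. Detection covered 7 genes at 0.5 TPM, 6 at 1 TPM and 5 at 5 TPM. No paired analysis was possible because there is 1 group. The ratio of Slc22a3 rests on 113 and 64 counts and ran from -0.77 to -0.60 over the other settings.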
